A study of Mus musculus with 2 samples.

Results

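The genes described here are 49 interferon-stimulated genes and nucleic acid sensors, chosen by symbol from the 49492 genes of the deposited count table, and all 49 were found there. They comprise 28 type I effectors, 9 gamma-type genes, 6 sensors and 6 interferon regulatory factor (IRF) or STAT genes. Basal cells of the mammary epithelium (lin-CD24+CD29hi) were sorted by flow cytometry from wild-type (WT) adult female mice, aged 8 to 10 weeks as the study's methods give it, and grown in a 3D matrix gel for 11 to 14 days. In the ctrl group the cells were grown alone, with no treatment. In the M2 group they shared the well with bone marrow-derived macrophages that had been polarised with IL-4 and IL-13, which sat in a porous insert and were renewed during the culture. Both groups shared the matrix and the medium with EGF and insulin, transferrin and selenium, and each group is 1 library of RNA from the colonies and organoids. The strain of the donors of the basal cells and the number of animals were not given in the sources used here.

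Interferons are secreted proteins that warn cells of infection. Type I and type III interferons act through receptors that activate JAK1 and TYK2, and a complex that holds STAT2 and IRF9 then binds the interferon-stimulated response element (ISRE). Interferon gamma acts through JAK1 and JAK2, and the STAT dimer that follows binds the gamma-activated site (GAS). Many effector genes answer to both arms, IRF1 and NF-κB act on some of the same promoters, and cytosolic sensors such as RIG-I start the production of interferon. In the mammary gland, as in other epithelia, these genes form part of the cell's own antiviral defence.

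To see what the promoters of these genes share, the stretch from 250 bases before to 50 bases after the annotated start was taken from RefSeq (GRCm38.p6), which matched 37 of the 49 genes. The ISRE core was searched as GAAA, any 2 bases and GAAA again, and the GAS as TTCNNNGAA, both on either strand, so that an ISRE on the other strand shows as a pair of TTTC. The ISRE core was found in 20 of the 37 genes, or 54.1%, whereas 3.99% of 27025 genes with a promoter held it. The GAS was found in 10 of the 37 genes, or 27%, against 9.55% of all genes. The 2 patterns can lie side by side or overlap. The stretches below hold the ISRE core in genes that come back in the results, with the matched letters in capitals, each read 5′ to 3′ along the strand of the gene. Those of Ifit3 and Ifit3b are shown because they are identical over all 84 bases.
Ifit3, chr19:34583353-34583436, + strand: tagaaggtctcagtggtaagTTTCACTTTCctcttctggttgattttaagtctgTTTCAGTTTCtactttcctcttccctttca
Ifit3b, chr19:34607749-34607832, + strand: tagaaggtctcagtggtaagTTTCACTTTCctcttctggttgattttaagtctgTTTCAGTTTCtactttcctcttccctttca
Ifit1, chr19:34640765-34640833, + strand: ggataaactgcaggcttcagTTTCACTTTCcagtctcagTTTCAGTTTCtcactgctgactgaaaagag
Rsad2, chr12:26456543-26456592, - strand: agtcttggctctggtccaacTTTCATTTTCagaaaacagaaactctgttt
Oas3, chr5:120777705-120777754, - strand: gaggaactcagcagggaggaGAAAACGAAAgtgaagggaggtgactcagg
Oas1a, chr5:120907526-120907565, - strand: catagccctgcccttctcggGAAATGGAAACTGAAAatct
Oas1g, chr5:120887614-120887651, - strand: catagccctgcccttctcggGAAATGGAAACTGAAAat
Isg15, chr4:156200855-156200916, - strand: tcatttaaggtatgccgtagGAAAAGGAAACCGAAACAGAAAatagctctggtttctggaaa
Cxcl10, chr5:92349073-92349122, - strand: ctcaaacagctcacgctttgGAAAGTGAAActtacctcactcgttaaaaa
Stat2, chr10:128270256-128270305, + strand: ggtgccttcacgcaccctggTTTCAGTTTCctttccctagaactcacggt
The match lay 75 bases before the start in Oas3 and 120 bases before it in Rsad2. In Isg15 there were 3 overlapping matches, between 78 and 66 bases before the start. Of the 6 IRF and STAT genes 2 held a GAS, Irf1 and Irf2, and the stretch of Irf1 is shown, with its match 90 bases before the start.
Irf1, chr11:53769904-53769952, + strand: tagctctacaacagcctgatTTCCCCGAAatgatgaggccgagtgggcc

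To ask how these genes differed between basal cells grown with and without M2-like macrophages, the reads of each gene were compared after scaling by library size. The libraries held 26912610 reads (ctrl) and 29413844 reads (M2) in annotated genes. Levels are given as reads and as CPM, the counts per 1e+06 reads of a library whose size was scaled by trimmed means of M values (TMM), and differences as the log2 of M2 over ctrl with 1 read added. A gene is called higher or lower at a Benjamini-Hochberg adjusted p under 0.05 by a two-sided exact binomial test over 19233 genes, together with at least a 2-fold difference. There are no replicates, so the test compares these 2 libraries and not the conditions, and the 95% intervals cover counting error only. In RNA from whole cultures, a change in the share of cells that express a gene and a change in the RNA per cell cannot be told apart.

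In the M2 library 16 of the 49 genes were called higher and 0 were called lower. This is 32.7% of the genes, beside 8.16% of all genes tested that were called higher and 6.55% that were called lower. The other 33 genes were not called, and 24 genes differed by less than 1.5-fold in either direction. The median log2 difference was 0.59, beside -0.0032 for all genes tested, and 40 genes had a positive and 9 a negative value. Together the 49 genes took 32253 reads in ctrl, which was 0.120% of the library (95% Wilson interval 0.119 to 0.121), and 44586 reads in M2, which was 0.152% (0.150 to 0.153). The spread between cultures was also assumed in place of measured, with the exactTest function of edgeR. With a coefficient of variation of 0.1 it called 15 of the 49 genes higher beside 7.31% of all genes, with 0.2 it called 9 beside 5.01%, and with 0.4 it called Oas3 alone beside 0.91%. None of the 49 was called lower at these settings, where 5.62%, 3.59% and 0.676% of all genes were. The 9 genes still called at 0.2 were Oas3, Rsad2, Isg20, Parp14, Gbp2, Ifi47, Cxcl10, Cxcl11 and Zbp1.

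**Figure D1:**
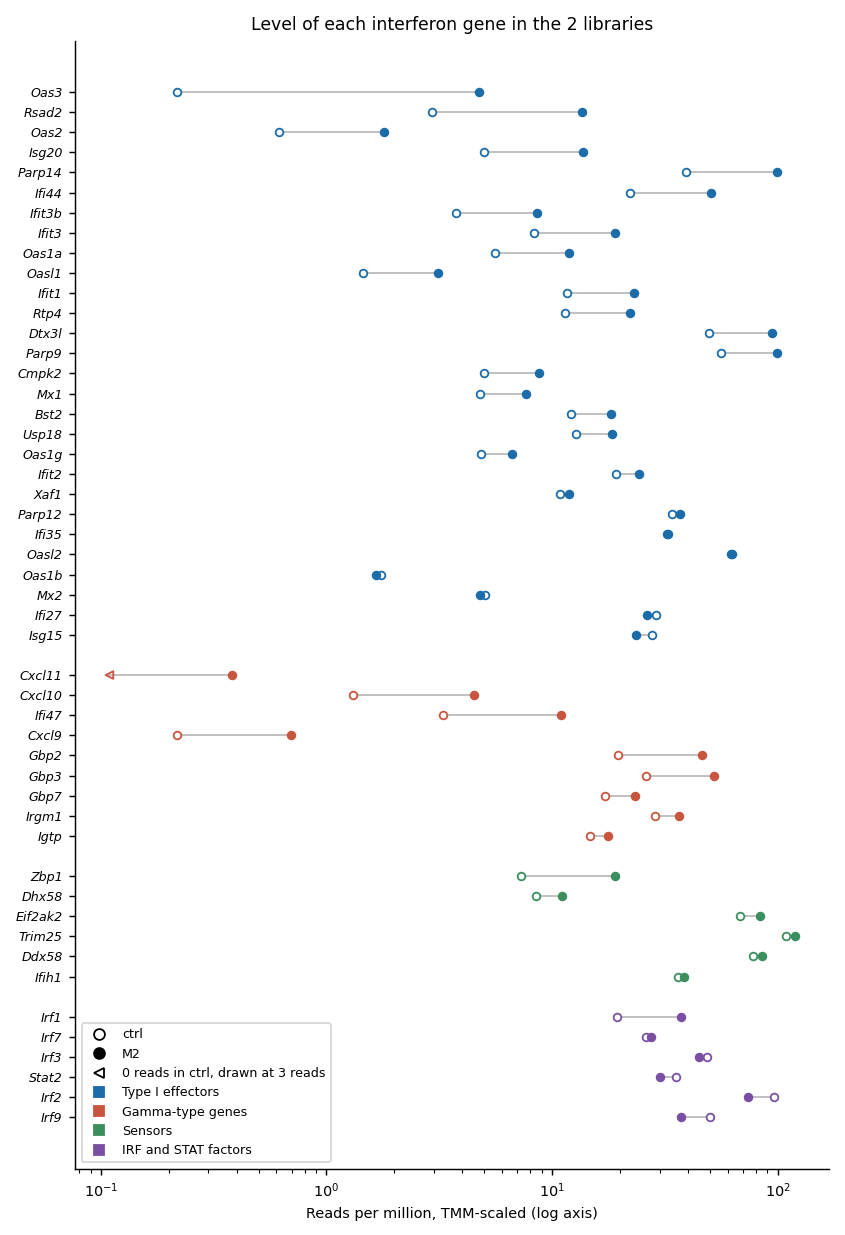
Level of each of the 49 genes in the ctrl library (open circles) and the M2 library (filled circles), in TMM-scaled CPM on a log axis, grouped by role and sorted by difference. Levels ran from below 1 to above 100 CPM, and Oas3 shows the longest line among genes with a read in both libraries.

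Type I effectors, the largest of the 4 roles, had 10 of 28 called higher and a median log2 difference of 0.81. This was 35.7% of the role, beside 32.7% of all 49 genes and 8.16% of all genes tested. Their summed level was 480 CPM in ctrl and 748 CPM in M2. Oas3 makes the short 2′-5′ linked oligoadenylates that serve as an antiviral messenger in the cell. It had 6 reads in ctrl and 136 in M2, or 0.218 and 4.72 CPM, a log2 difference of 4.22 (95% interval 3.27 to 5.90, adjusted p = 7.23e-31 by the exact binomial test). It was among the fainter genes of the set in ctrl, so that its difference rests on few control reads. Oas2, which makes the same messenger, had 17 and 52 reads (0.619 and 1.80 CPM), a log2 difference of 1.49 (0.73 to 2.43). Oas1a had 153 and 344 reads (log2 1.09, 0.82 to 1.38) and Oasl1, a relative without this enzyme activity, had 40 and 90 reads (log2 1.08, 0.55 to 1.68). These 4 OAS genes were called higher, whereas the other 3 were not. Oas1g had 133 and 192 reads, Oas1b 48 and 48, and Oasl2 1729 and 1790. Oasl2 thus held 1729 of the 2126 reads of the OAS members in ctrl, and its log2 difference was -0.02 (-0.12 to 0.08).

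Of the listed type I effectors outside the OAS family, Rsad2 had the highest log2 difference. It encodes viperin, a radical SAM enzyme that makes a chain-terminating nucleotide, and had 81 ctrl reads and 392 M2 reads (2.95 and 13.6 CPM). The log2 difference was 2.19 (1.86 to 2.57, adjusted p = 8.17e-46 by the exact binomial test). Its neighbour Cmpk2, a nucleotide kinase of mitochondria, was not called, with 137 and 251 reads and a log2 difference of 0.80 (0.50 to 1.12). Isg20, an exonuclease that degrades RNA, was called higher, with 137 and 394 reads (log2 1.45, 1.17 to 1.75).

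The Ifit genes encode tetratricopeptide proteins that bind foreign RNA ends, and Ifit3 and Ifit3b were called higher. Ifit3 had 229 and 545 reads and Ifit3b 103 and 246 reads, and both had a log2 difference of 1.18. Ifit1 lay just under the fold threshold with 319 and 665 reads (log2 0.99, 0.80 to 1.19), and Ifit2 had 525 and 701 reads (log2 0.35, 0.18 to 0.51). Ifit3 and Ifit3b, whose promoter stretches are the identical pair printed above, also share sequence in their transcripts. Of all 50-base words of Ifit3, 51.2% occur in Ifit3b, and for Oas1a 57.6% occur in Oas1g, so the split of reads within these pairs is uncertain.

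The genes that modify proteins fell on both sides of the threshold. Parp14, an ADP-ribosyltransferase, was called higher with 1081 and 2855 reads (39.4 and 99.1 CPM), a log2 difference of 1.33 (1.23 to 1.43), which was the lowest p of the 49 genes (adjusted p = 1.51e-162 by the exact binomial test). Parp9 and its partner, the ubiquitin ligase Dtx3l, were not called. Parp9 had 1538 and 2858 reads (log2 0.82, 0.73 to 0.92) and Dtx3l 1362 and 2705 reads (log2 0.92, 0.83 to 1.02). These neighbours lie on opposite strands of chromosome 16 and share 458 exonic bases, and whether the counting used strand was not given in the sources used here. Parp12 had 936 and 1059 reads, with a log2 difference of 0.11. Isg15, the ubiquitin-like modifier itself, had 761 ctrl reads and 676 M2 reads (27.7 and 23.5 CPM), a log2 difference of -0.24 (-0.39 to -0.09, adjusted p = 0.00402 by the exact binomial test) that was far below the fold threshold. Usp18, the protease that removes Isg15 from proteins, had 352 and 530 reads (log2 0.52, 0.32 to 0.72). Per kilobase of transcript Isg15 had the highest level of the 49 genes in both libraries, 36.6 RPKM in ctrl and 31.0 RPKM in M2.

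Of the remaining type I effectors only Ifi44, a GTPase-like protein of the cytoplasm, was called higher, with 611 and 1463 reads (log2 1.19, 1.05 to 1.33). Rtp4, a chaperone for receptors, had 313 and 639 reads (log2 0.96, 0.76 to 1.16). The dynamin-like antiviral GTPases Mx1 and Mx2 were not called. Mx1 had 132 and 220 reads (log2 0.66, 0.35 to 0.99) and Mx2 139 and 138 reads (log2 -0.08, -0.43 to 0.27). Bst2, or tetherin, which holds budding virus at the cell surface, had 332 and 526 reads (log2 0.59). Ifi35, Ifi27 and Xaf1 had log2 differences between -0.13 and 0.12, each with an interval that included 0. Thus genes of this role ranged from a large difference in Oas3 and Rsad2 to none that could be detected in Ifi35, which had 891 and 937 reads.

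**Figure D2:**
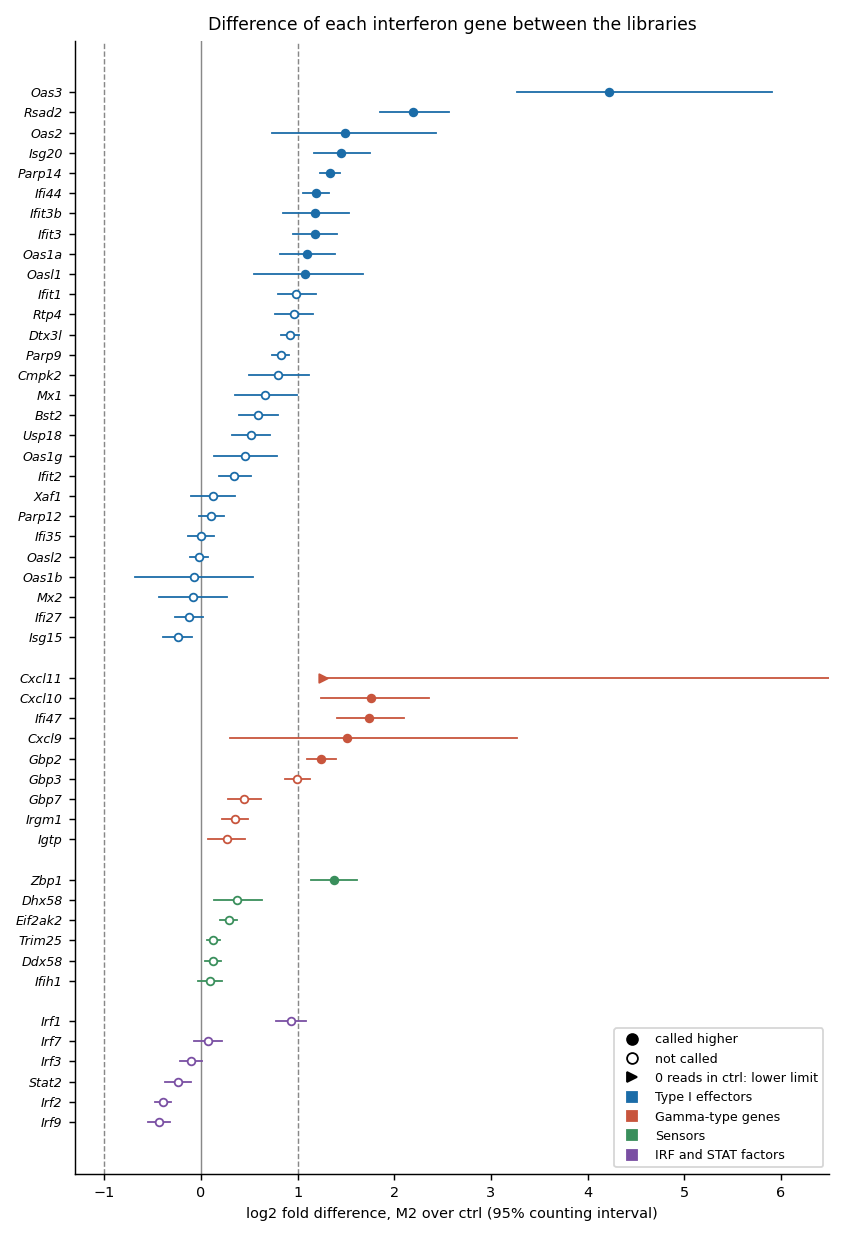
Log2 difference of each gene, M2 over ctrl, with its 95% counting interval, grouped by role. Filled points were called higher, dashed lines mark a 2-fold difference, and the triangle of Cxcl11, with 0 reads in ctrl, marks the lower limit of its interval. Of the 16 called genes 10 are type I effectors, a role that holds 28 of the 49 genes. None of the 9 genes with a negative value reaches the dashed line at -1.

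Gamma-type genes had the highest median of the 4 roles, 1.25, with 5 of 9 called higher and a positive value for all 9. They are of 2 kinds, chemokines that draw activated T cells through the receptor CXCR3, and GTPases that attack the vacuoles of intracellular microbes. The rank of this role depends on which genes were assigned to it, and roles were assigned with earlier results of these data known. With Cxcl10 and Cxcl11 counted as type I effectors, the gamma-type median was 0.996 and the type I median 0.87. The 6 GTPases alone had a median of 0.72, which was under the 0.81 of the type I effectors. All 3 chemokines were called higher, at low levels. Cxcl10 had 36 ctrl reads and 130 M2 reads (1.31 and 4.51 CPM), a log2 difference of 1.75 (1.24 to 2.36). Cxcl9 had 6 and 20 reads (log2 1.52, 0.30 to 3.27, adjusted p = 0.0204 by the exact binomial test). Cxcl11 had 0 and 11 reads, for which the lower limit of the log2 difference was 1.26. Cxcl9 is the call of the widest interval among genes with a read in both libraries, and it was lost when a coefficient of variation of 0.1 was assumed. Of all 50-base words of Cxcl11, 40.4% occur in the overlapping gene Gm2673, which had 0 reads in both libraries.

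Among the 6 GTPases 2 were called higher. Ifi47 had 90 and 317 reads (3.28 and 11.0 CPM), a log2 difference of 1.74 (1.41 to 2.10, adjusted p = 1.35e-27 by the exact binomial test). Gbp2, a guanylate-binding protein, had 537 and 1337 reads (19.5 and 46.4 CPM) with a log2 difference of 1.25 (1.10 to 1.39). Gbp3 lay at the threshold and was not called, with 718 and 1504 reads and a log2 difference of 0.996 (0.87 to 1.13). Gbp7 had 469 and 672 reads (log2 0.45), Irgm1 784 and 1050 reads (log2 0.35) and Igtp 404 and 510 reads (log2 0.27, 0.08 to 0.46). The immunity-related GTPases Irgm1 and Igtp and the called Ifi47 belong to the same family, and the interval of Ifi47 lay above those of the other two. Ifi47 shares 111 exonic bases with Olfr56 on the same strand, which had 32 and 97 reads.

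Of the 6 sensors Zbp1 alone was called higher. Zbp1 binds left-handed nucleic acid and can start necroptosis, and it had 201 ctrl reads and 548 M2 reads (7.32 and 19.0 CPM), a log2 difference of 1.37 (1.14 to 1.62, adjusted p = 1.50e-33 by the exact binomial test). The RNA helicases that detect viral RNA differed little. Ddx58, the gene of RIG-I, had 2145 and 2458 reads (log2 0.13, 0.04 to 0.21), and Ifih1, the gene of MDA5, 988 and 1104 reads (log2 0.09, -0.03 to 0.22). Dhx58, the gene of LGP2, had 233 and 318 reads (log2 0.38, 0.13 to 0.63). Trim25, the ubiquitin ligase that acts with RIG-I, had 3000 and 3442 reads (109 and 119 CPM), the most reads of the 49 genes in both libraries. Eif2ak2, the gene of the kinase PKR, which halts translation on binding double-stranded RNA, had 1870 and 2399 reads (log2 0.29, 0.20 to 0.38). The 5 uncalled sensors differed by less than 1.5-fold.

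None of the 6 IRF and STAT genes was called, and their median was -0.17. Irf1 stood apart from the others with 534 reads in ctrl and 1069 in M2 (19.4 and 37.1 CPM), a 1.91-fold difference (log2 0.93, 0.78 to 1.08). Irf9 and Stat2, whose products bind the ISRE in one complex, both had a lower CPM in M2. Irf9 had 1376 and 1070 reads (50.1 and 37.1 CPM), a log2 difference of -0.43 (-0.55 to -0.32), and Stat2 had 972 and 863 reads (log2 -0.24, -0.37 to -0.11). Irf2, a factor that can oppose IRF1, had 2646 and 2118 reads (log2 -0.39, -0.47 to -0.31). Irf3, which carries the signal of the sensors, had 1329 and 1297 reads (log2 -0.10) and Irf7, its inducible relative, 719 and 794 reads (log2 0.07), and both intervals included 0.

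Calls were more frequent among genes of low level, both here and in the whole table. Of the 17 genes with a mean of both libraries under 10 CPM, 11 were called higher with a median log2 difference of 1.18, and of the 32 genes at or above 10 CPM, 5 were called higher with a median of 0.32. Among all genes tested the shares called higher were 11.6% under 10 CPM and 5.02% at or above it. The 5 called genes at or above 10 CPM were Ifit3, Ifi44, Parp14, Gbp2 and Zbp1. Called and uncalled genes were found both with and without the ISRE core. Of the 20 genes that hold it in the window 7 were called higher, with a median of 0.53, and of the 17 without it 5, with a median of 0.35. Of the 10 genes that hold the GAS 2 were called higher, with a median of 0.40. Of the 27 without the GAS 10 were called, with a median of 0.80. By role, the GAS was held by 2 of 8 gamma-type genes and 5 of 19 type I effectors with a promoter. The ISRE core was held by 6 of those 8 and 9 of those 19.

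**Figure D3:**
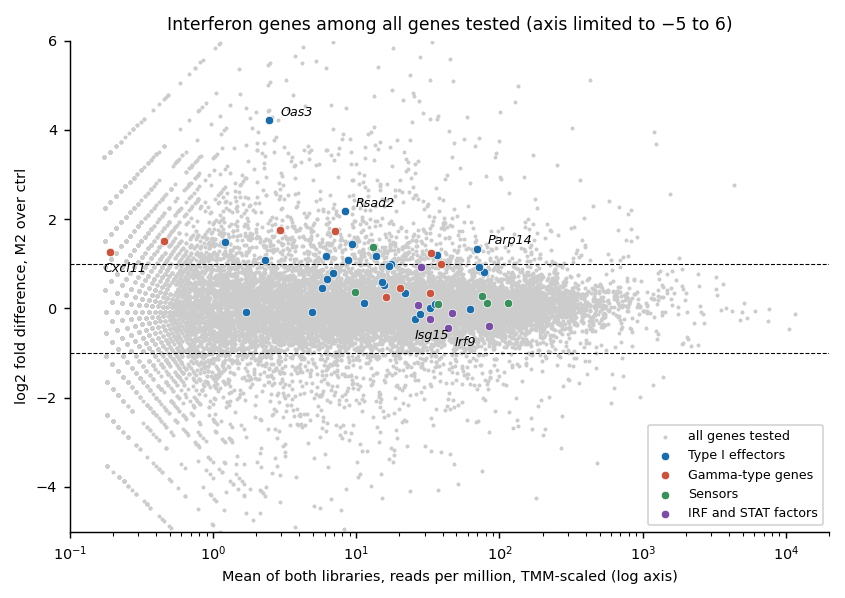
Log2 difference, M2 over ctrl, against the mean level of both libraries in TMM-scaled CPM on a log axis, for the 49 genes by role (coloured) and for all genes tested (grey, with 1 read added). Cxcl11 is drawn at its lower limit and dashed lines mark a 2-fold difference. Of the 16 called genes 11 lie below 10 CPM. Trim25, the gene of the highest level, lies at 0.13. Among other genes of high level, Irf2 lies at -0.39, Parp9 at 0.82, Dtx3l at 0.92 and Parp14 at 1.33.

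Next, the other genes of the pathway were read from the same test, grouped by role. These lists were written with earlier results of these data known, so they are not an independent selection. Of 123 such genes 121 were in the table and 86 had at least 10 reads, of which 28, or 32.6%, were called higher and 0 lower, with a median log2 difference of 0.55 (0.51 with genes at 3 or fewer reads in a library set at their interval limit). Beside these counts, and those of each list below, 8.16% of all genes tested were called higher and 6.55% lower. Transcripts of the interferons themselves were at the floor. Of 21 ligand genes, 20 had 0 reads in both libraries and Ifne had 0 and 1, where a count of 0 allows up to 3 reads, or 0.109 CPM in ctrl and 0.104 CPM in M2.

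Of the 6 receptor genes Ifngr2, a chain of the interferon gamma receptor, was called higher, with 804 and 1768 reads (log2 1.07, 0.95 to 1.19). Its partner Ifngr1 had 915 and 1885 reads (log2 0.97, 0.86 to 1.09), and the type I receptor chains Ifnar1 and Ifnar2 had log2 differences of 0.18 and 0.85. The receptors' median was 0.78 and all 6 were positive. Of the kinases that the receptors carry, Jak1, Jak2 and Tyk2, none was called. Jak2 had 2148 and 3569 reads (log2 0.66, 0.59 to 0.74) and Tyk2 482 and 398 reads (log2 -0.34, -0.54 to -0.15). Of 4 feedback inhibitors Ptpn2, a phosphatase that acts on JAK kinases, was called higher, with 811 and 2112 reads (log2 1.31), whereas Socs3 had 3539 and 2265 reads (log2 -0.71, -0.79 to -0.64).

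Of 9 sensing adaptors and Toll-like receptor genes tested, 3 were called higher. Ikbke, a kinase that activates IRF3, had 336 and 1191 reads (log2 1.75, 1.58 to 1.94), Tmem173, the gene of STING, 337 and 755 reads (log2 1.09) and Traf3 796 and 1688 reads (log2 1.01). Mavs, through which RIG-I and MDA5 signal, had 489 and 401 reads (log2 -0.35). The PYHIN genes, which encode nuclear and cytosolic proteins that bind DNA, were called higher in 4 of 4 tested, with a median of 2.72. Ifi204 had 112 and 822 reads (log2 2.80, 2.52 to 3.10), Ifi203 91 and 603 reads (log2 2.65), Ifi205 12 and 167 reads (log2 3.62) and Ifi202b 726 and 1607 reads (log2 1.08). These genes are close relatives, and how far they share reads was not measured.

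Among 36 other type I effectors tested, 9 were called higher and 0 lower, with a median of 0.37. Slfn2 had 129 and 1155 reads (log2 3.08, 2.83 to 3.37), and Ube2l6, the enzyme that carries Isg15 to its targets, had 100 and 503 reads (log2 2.25, 1.95 to 2.59). Ifitm3, a membrane protein that blocks virus entry, had 2467 and 6755 reads (log2 1.38), while Adar, an RNA-editing enzyme, had 1888 and 1482 reads (log2 -0.42). Of 21 other gamma-type genes tested 10 were called higher, with a median of 1.19 (1.04 with genes at 3 or fewer reads set at their limit). Gbp9 had 20 and 250 reads (log2 3.51, 2.92 to 4.31) and Cd274, the gene of PD-L1, 44 and 165 reads (log2 1.81). Nos2, the inducible nitric oxide synthase, had 2 and 142 reads, for which the lower limit was 4.20. Iigp1, an immunity-related GTPase, had 338 and 248 reads (log2 -0.51, -0.76 to -0.28), so that this list too held values of both signs.

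Several of these genes also answer to NF-κB. Of 10 NF-κB targets 5 were called higher, with a median of 1.31, among them Tnfaip3 with 312 and 1836 reads (log2 2.48, 2.31 to 2.67) and Cxcl1 with 6471 and 32661 reads (log2 2.27). The part of NF-κB in the differences of the 49 genes was not tested.

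**Figure D4:**
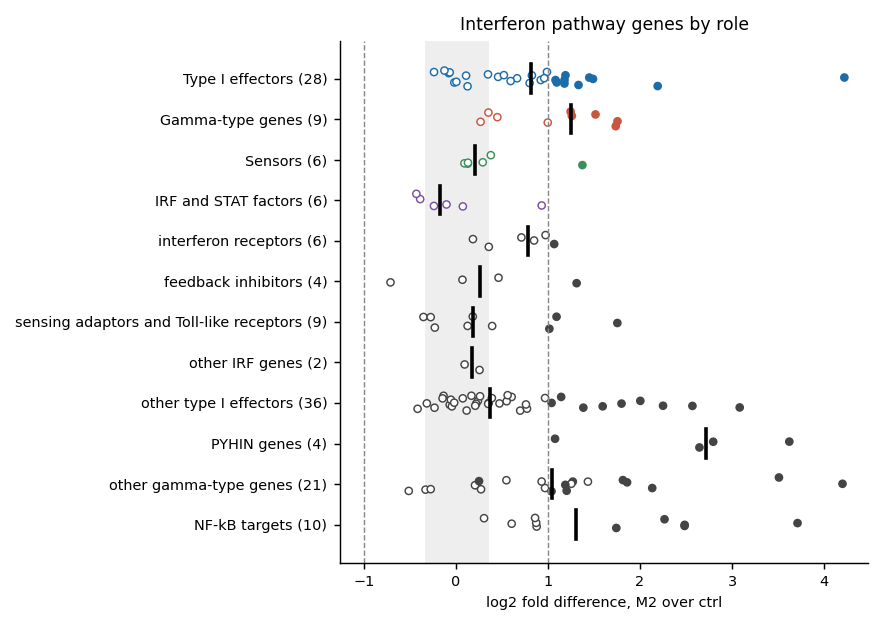
Log2 difference, M2 over ctrl, of each gene tested, by role, with the number of genes tested in brackets, filled points for called genes and a bar at the median. The grey band spans the interquartile range of all genes tested, and genes at 3 or fewer reads in a library are drawn at the interval limit nearest 0. The medians of PYHIN genes, NF-κB targets, gamma-type genes and other gamma-type genes lie right of the 2-fold line. The median of the IRF and STAT factors lies within the band.

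Many of the 49 genes lie in clusters, whose coordinates are given on GRCm38 as the table lists them. For the counts in each cluster, the shares over all genes tested were 8.16% called higher and 6.55% called lower. The Ifit cluster on chromosome 19, from 34550694 to 34650009, held 6 genes, of which 4 were called higher. These were Ifit3, Ifit3b and the unlisted relatives Ifit1bl1, with 2 and 18 reads, and Ifit1bl2, with 18 and 43. In the Oas cluster on chromosome 5, from 120730333 to 120907521, 3 of 7 genes tested were called, and Oas3 and Oas2 lie next to each other at one end with Oas1a at the other. Between them Oas1c had 203 and 210 reads. In the Gbp cluster on chromosome 3, from 142530342 to 142638008, the called genes Gbp2 and Gbp2b are neighbours, and Gbp2b had 231 and 559 reads (log2 1.20). From Irgm1 to Ifi47 on chromosome 11, from 48861968 to 49096974, 6 of 10 genes tested were called higher, while Irgm1 at one end was not. These calls include Ifi47 itself and Olfr56, which shares exonic bases with it on the same strand. They also include 9930111J21Rik1, with 4 and 21 reads, and Gm5431, with 1 and 9, which was not called at an assumed coefficient of variation of 0.1. The Mx cluster on chromosome 16, from 97447035 to 97560900, held 4 genes tested, of which Gm9242 was called higher with 135 and 316 reads, Fam3b was called lower with 53 and 1, and Mx1 and Mx2 were not called. On the same chromosome, from 35832874 to 35972605, Parp14 was called higher and Gm15564, with 23 and 9 reads, was called lower, whereas Dtx3l and Parp9 were not called. The 3 chemokine genes lie together on chromosome 5, from 92321347 to 92365485, and the fourth gene tested there, Art3, was called too, with 14 and 51 reads. Art3 shares 133 exonic bases with Cxcl10 on the other strand, so without knowing whether strand was used, reads in those bases cannot be assigned to either gene.

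**Figure D5:**
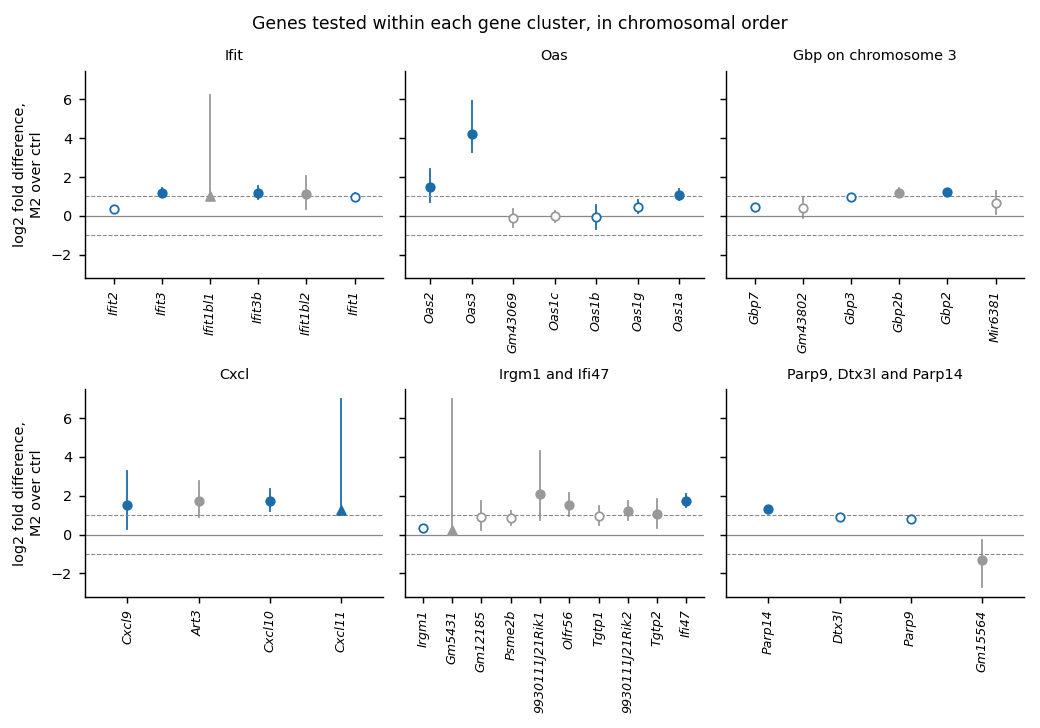
Log2 difference, M2 over ctrl, with 95% counting intervals, of each gene tested in 6 clusters, in the order of their positions. Blue marks the 49 genes and grey their neighbours, filled points were called, and triangles mark the interval limit nearest 0 of genes with 3 or fewer reads in a library. In the Oas panel Oas3 stands above its neighbours, and in the chemokine panel every gene tested is called higher.

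The cells were checked against the markers of the cell types that the cultures could hold. The basal genes Krt5 and Krt14 were among the abundant transcripts, with 56383 and 81991 reads in ctrl and 83619 and 68968 in M2, and the 10 basal markers had a median log2 difference of -0.05. Of these, Krt17 was called higher with 6051 and 16592 reads (log2 1.39) and Oxtr, the oxytocin receptor gene, lower with 8324 and 1920 reads (log2 -2.18). Of 10 luminal markers 5 were called lower (Elf5, Kit, Esr1, Pgr and Prlr), with a median of -0.94 for the list. The other 5 were not called, with log2 differences of 0.21 in Krt8, 0.06 in Epcam, -0.05 in Krt18, -0.08 in Cldn3 and -0.78 in Krt19. The summed level of 18 macrophage markers was 117 CPM in ctrl and 120 CPM in M2, a log2 difference of 0.04 (-0.03 to 0.11). Arg1 had 1507 and 2090 reads, Cd68 170 and 165 and Csf1r 94 and 92. No read fell in the defining markers Adgre1, Ptprc, Tyrobp, Fcer1g and Chil3, that is 0 in either library, and Lyz2 had 3 and 1, whereas Aif1 had 3 and 40 and Cd163 2 and 30. The 7 lymphoid and dendritic markers had 1 and 5 reads in all. The part of the luminal markers called lower and of the Aif1 and Cd163 reads in the differences of the interferon genes was not tested.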

How the data were processed

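The study sequenced RNA of mammary basal cell cultures, 1 library each of ctrl and M2, and the groups came from the sample titles. Although the series is titled a microarray, the values that the authors deposited are raw sequencing counts for each gene, not normalized, in the column layout of featureCounts. The submitters' processing notes name GRCm38 (mm10). Aligner, counter, annotation and use of strand are not given in the sources used here. The labels name a column kit for RNA and a SMARTER library kit, the methods RNAiso Plus. Gene names that had become dates (26) were tested but are not named.

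TMM factors came from edgeR 4.0.16 under R 4.3.3, and tests from scipy 1.17.1. Genes with at least 10 summed reads entered a two-sided exact binomial test (19233 genes, adjusted by Benjamini-Hochberg, called at 0.05 and 2-fold) with Clopper-Pearson 95% intervals. The quasi-likelihood model of edgeR could not be fitted to 1 library per group. The exactTest of edgeR was run with assumed coefficients of variation of 0.1, 0.2 and 0.4. CPM values use the TMM-scaled library size, and RPKM divides them by the length listed in the table. A gene at 3 or fewer reads in a library gets the interval limit nearest 0 in place of a difference. The binomial test was checked on simulated counts drawn with counting error only, so the check cannot speak to spread between cultures.

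The members, their roles and all lists were chosen with earlier results of these data known. All 49 members and the genes of the lists could be named. Promoters of 12 members were not matched. Some genes of the lists are not reported here by name. PCR copies could not be removed by molecular identifiers, none being mentioned. Every interval and floor counts each read as independent, and so may understate the counting error.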

Additional observations from a re-analysis of the deposited data

How the results depend on the processing

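With 1 library per group, leaving out a replicate was not possible, DESeq2's Wald test could not be fitted, and spread between cultures is unknown. No paired analysis was possible because ctrl and M2 are single libraries. The number of members called higher, 16, became 25 at a 1.5-fold threshold, beside 12.8% of all genes tested. At 4-fold it was 3, beside 3.20% of all genes. These were Oas3, Rsad2 and Cxcl11. Cxcl11 counts on its value with 1 read added, since its lower limit of 1.26 lies under that threshold. With an assumed coefficient of variation of 0.2 it was 9, beside 5.01%, and with 0.4 it was 1, beside 0.91%. With at least 1 CPM in both libraries 12 of 45 members were called higher, beside 5.46% of all genes that passed this filter. Members called lower were 0 under every alternative run. Scaling by total reads, median of ratios or upper quartile, pseudocounts of 0.5 or 5 reads and a filter of 1 summed read changed no member's call. Scaling by total reads moved the median of all genes to -0.06 and turned that of Ifi35 from 0.0033 to -0.056 (log2). The gamma-type median, 1.25, became 0.996 with at least 1 CPM in both libraries or with Cxcl10 and Cxcl11 counted as type I effectors, and 1.52 without close paralogs. Without members whose exons overlap another gene, an alternative added after seeing the data, it was 0.996 over 3 genes, and the median of IRF and STAT genes moved from -0.17 to -0.32 over 2 genes. The other medians stayed between 0.46 and 0.60 for all members, 0.73 and 0.87 for type I effectors and 0.13 and 0.21 for sensors.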
